A study of Mus musculus with 23 samples.

Results

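Genes of new neurons and their progenitors, 10 in all, were taken by name from the 39017 genes measured in mouse hippocampus. They comprise the dividing-cell genes Mki67 and Top2a, the transcription factor genes Eomes, Neurod1, Sox4 and Sox11, and Igfbpl1, Draxin, Dcx and Dpysl3, which are read in immature neurons. All 10 were found in both deposited tables, and all were chosen with earlier results of these data known. RNA came from hippocampi of wild-type mice (WT) and of mice labelled as knockout of Nrsn2, the gene of the neuronal membrane protein neurensin 2 (here KO-labelled). Under each genotype label mice were either controls or exposed to CSDS, chronic social defeat stress: on 10 days in a row each mouse spent 5 min with a different aggressive CD-1 mouse and then lived beside it, parted by a divider. The 4 groups, WT control, WT CSDS, KO-labelled control and KO-labelled CSDS, had 5 libraries each. The labels used here give no age, sex, strain or knockout allele, and do not say whether each library is 1 mouse, so each p-value reflects the spread among libraries, which may be technical.

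The dentate gyrus of the hippocampus is one of the few places where the adult mouse brain adds neurons. Radial glia-like stem cells there divide into intermediate progenitors, which switch on Eomes, then Neurod1, and become immature granule neurons that carry Dcx before they join the circuit. Chronic stress is widely used to study this process, because stress and glucocorticoids are known to lower progenitor division in rodents. In RNA from the whole hippocampus these cells are a small minority, and fewer such cells cannot be told apart from less RNA per cell.

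Depth, estimated from the deposited values, ran from 25.65 to 55.69 M reads per library (median 45.28). A further 3 libraries carried labels in conflict: WT 9B, KO 11 and KO 10B are titled controls, but their treatment field reads CSDS. The series design counts 5 controls and 6 to 7 CSDS samples per genotype, as the treatment field does, while the authors' deposited control means include these libraries. They were left out of the groups and tried both ways. By the robust SD of log2 differences between libraries, WT 9B lay 0.07 to 0.11 from WT controls and 0.129 to 0.177 from WT CSDS libraries. KO 11 lay 0.0799 to 0.0919 from KO-labelled controls 6 to 9, 0.161 from control 10 and 0.139 to 0.152 from CSDS libraries. KO 10B lay 0.0942 to 0.122 from KO-labelled controls 6 to 9, 0.162 from control 10 and 0.12 to 0.128 from CSDS libraries. Which label is right was not tested. Nrsn2, read as a check of the genotype label, was not lower in the KO-labelled libraries. Its level was 32.7 ± 2.53 RPKM (SD, n = 10) against 29.4 ± 2.36 in WT (n = 10), 1.11 times the WT level, with a two-sided permutation p of 0.0077. The allele is not given and the values are per whole gene, so the label could not be checked. Every direction given refers to the label. Control library 10 of each genotype label had the pattern of a female, with Xist at 56.5 RPKM (WT) and 48.2 RPKM (KO-labelled), and the other 18 had that of males. By the same robust SD, KO-labelled control 10 also lay 0.152 to 0.167 from KO-labelled controls 6 to 9, which lay 0.0753 to 0.11 from each other. The part of sex in its values was not tested. In the conflicting libraries Xist was at 1.6 RPKM (KO 11), 1.45 (KO 10B) and 0.025 (WT 9B), against 0.0347 to 0.0618 in the 18 of male pattern. The Y-linked gene Ddx3y was at 9.99, 8.75 and 9.66 RPKM in KO 11, KO 10B and WT 9B, and the cause was not tested.

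Levels are given as RPKM, reads scaled to gene length and library size, so that levels can be compared between genes. Over the 20 libraries Dpysl3, which encodes a collapsin response mediator protein of growing axons, had the highest mean level of the 10 genes, 9.5 RPKM. Neurod1, a basic helix-loop-helix factor that granule neurons keep as they mature, followed at 5.74, Sox4 at 2.96, Dcx at 2.25 and Sox11 at 1.34. Igfbpl1, which encodes a secreted protein of the insulin-like growth factor binding family, averaged 0.884. Mki67, the gene of the proliferation antigen Ki-67, averaged 0.473, Eomes 0.361, Draxin 0.233 and Top2a, the gene of the DNA topoisomerase of dividing cells, 0.202. The 4 genes of lowest level rested on few reads, by an estimate from gene length: from 12 to 139 per library for Eomes, 12 to 125 for Draxin, 20 to 156 for Top2a and 133 to 296 for Mki67. Among these 4 the coefficient of variation within groups was 54.5% for Eomes, 31.7% for Top2a, 29.2% for Draxin and 12% for Mki67. Of the 6 others it was 33.4% for Igfbpl1 and 18.4% for Sox11, and from 6.09% (Neurod1) to 9.65% (Sox4) in the rest. Igfbpl1 too rested on few reads, 43 to 228 per library by the same estimate. In this order of levels, Dpysl3 and Neurod1, Neurod1 and Sox4, and Dcx and Sox11 did not overlap in any of the 4 groups. The ranges of Sox4 and Dcx, and those of Sox11 and Igfbpl1, were apart in both control groups and overlapped in both CSDS groups. Within each single WT CSDS library Sox4 still lay above Dcx. Dcx lay above Sox4 in KO-labelled CSDS libraries 1 (2.455 against 2.343 RPKM), 2 (2.586 against 2.097) and 4 (2.679 against 2.582). In KO-labelled CSDS libraries 3 and 5 Dcx lay below Sox4. Igfbpl1 and Mki67 overlapped in 1 group, Mki67 and Eomes in 3, Draxin and Top2a in 3, and Eomes and Draxin in all 4.

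**Figure D1:**
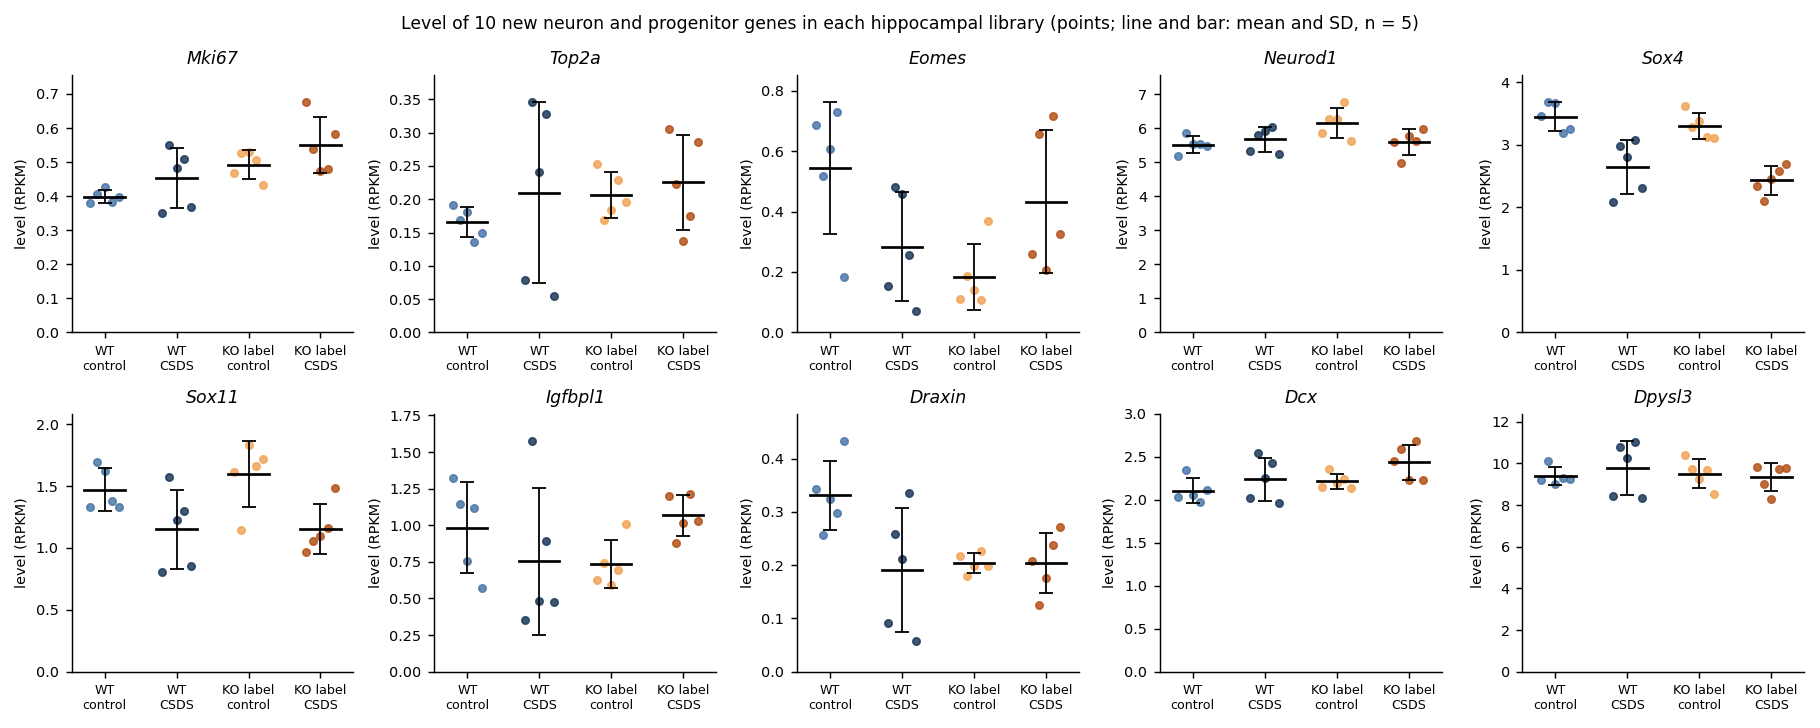
Level of each gene (RPKM, linear axis from 0) in the 5 libraries of each group, with the group mean and SD. Sox4 is lower in all 5 CSDS libraries than in any control library under both genotype labels, and Eomes is spread from 0.072 to 0.731. The share of all genes whose groups separate like those of Sox4 is not given here.

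Sox4 and Sox11 encode the SoxC transcription factors, which act together in newly committed neurons and switch on genes such as Dcx. Both are single-exon genes on the minus strand: Sox4 (ENSMUSG00000076431) at chr13:28948919-28953713 and Sox11 (ENSMUSG00000063632) at chr12:27334264-27342574 of mm10. Their upstream sequences are shown because Sox4 is the gene called under both genotype labels and Sox11 is the other member of its family here. Capitals mark the E-box CANNTG, the element of basic helix-loop-helix factors such as Neurod1, which reads the same on both strands. The sequences come from RefSeq promoters of GRCm38.p6 and are written on the gene's strand, 236 bases at chr13:28953714-28953949 and 250 bases at chr12:27342719-27342968.
Sox4: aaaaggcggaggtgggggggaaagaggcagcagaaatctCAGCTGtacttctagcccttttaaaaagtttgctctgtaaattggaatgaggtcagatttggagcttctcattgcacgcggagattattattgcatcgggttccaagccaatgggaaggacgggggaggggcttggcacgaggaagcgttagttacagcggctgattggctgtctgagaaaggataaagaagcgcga
Sox11: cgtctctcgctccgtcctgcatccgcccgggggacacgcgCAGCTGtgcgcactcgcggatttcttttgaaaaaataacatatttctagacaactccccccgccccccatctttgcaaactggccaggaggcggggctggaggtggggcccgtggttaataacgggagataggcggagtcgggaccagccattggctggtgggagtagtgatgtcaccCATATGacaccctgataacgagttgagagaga
Sox4 holds 1 E-box, CAGCTG, and Sox11 holds CAGCTG and CATATG. A RefSeq window was at hand for 8 of the 10 genes, and 5 of the 8 held CANNTG, which occurs in 66.2% of 32851 mouse windows of 250 bases. CAGCTG occurs in 13.0% of all windows and in 3 of these 8, those of Sox4, Sox11 and Draxin. These are letter matches in a short window and say nothing about binding.

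The first question was which of these genes differed after defeat in WT mice. Of the 6 genes that passed the filter on low values (a mean of at least 0.5 RPKM over the libraries compared), 1 changed: Sox4 fell. In this comparison 22.4% of all 18274 genes tested passed an adjusted p of 0.05 (limma on log2(RPKM + 0.5), Benjamini-Hochberg), 12.5% as lower and 9.88% as higher, so 1 of 6 is near the share over all genes. Sox4 was at 3.46, 3.68, 3.67, 3.20 and 3.26 RPKM in WT controls 6 to 10 and at 2.09, 2.99, 2.80, 3.08 and 2.31 in WT CSDS libraries 1 to 5. Every CSDS library lay below every control. The share of all genes whose groups separate as fully is not given here. The mean went from 3.45 ± 0.226 to 2.65 ± 0.433 RPKM (SD, n = 5 each), a log2 difference of -0.34 ± 0.09 (SE, adjusted p = 0.0237). The authors' deposited table, which was made with edgeR, gives -0.34 at a false discovery rate of 0.00171. The call is a narrow one: it held in 16 of 21 other settings, with adjusted p up to 0.0588, and was lost without WT control 7 (0.055), WT control 8 (0.0503) or WT CSDS 5 (0.0544).

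Sox11 was at 1.33, 1.69, 1.62, 1.38 and 1.33 RPKM in WT controls 6 to 10 and at 0.803, 1.57, 1.23, 1.30 and 0.854 in WT CSDS libraries 1 to 5. Its lowest values are in CSDS libraries 1 and 5, and library 2 lies among the controls. The log2 difference was -0.27 ± 0.13 and did not pass (adjusted p = 0.146), though it did without WT CSDS 2 (-0.36, adjusted p = 0.0489). Dcx, whose product doublecortin binds microtubules in migrating neurons, was at 2.11 ± 0.145 RPKM in WT controls and 2.24 ± 0.251 after CSDS (n = 5 each), a log2 difference of 0.07 ± 0.07 (adjusted p = 0.483). Neurod1 (0.04 ± 0.04, adjusted p = 0.608), Dpysl3 (0.05 ± 0.08, adjusted p = 0.7) and Igfbpl1 (-0.30 ± 0.24, adjusted p = 0.409) did not pass either. Igfbpl1 had both its highest and its lowest value of the whole study among WT CSDS libraries, 1.57 RPKM in library 2 and 0.351 in library 1.

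The 4 genes below the filter in WT were fitted with no filter, where 11.4% of 31024 genes were called and none of these 4 was. Eomes, the T-box factor of intermediate progenitors, was at 0.685, 0.518, 0.606, 0.731 and 0.182 RPKM in WT controls 6 to 10 and at 0.153, 0.480, 0.458, 0.255 and 0.072 in WT CSDS libraries 1 to 5. All 5 CSDS libraries were below the control mean, but control 10, of the female pattern, lay among them. The log2 difference was -0.42 ± 0.20 (adjusted p = 0.224), and the authors' deposited table gives -1.0 at a false discovery rate of 0.059. Draxin, which encodes a secreted guidance protein that repels axons, was at 0.344, 0.257, 0.324, 0.298 and 0.432 RPKM in WT controls 6 to 10 and at 0.0922, 0.259, 0.212, 0.335 and 0.0575 in WT CSDS libraries 1 to 5. Libraries 1, 3 and 5 were below every control, and libraries 2 and 4 were among them. The difference was -0.28 ± 0.11 (adjusted p = 0.145), and -0.655 with 0.1 RPKM added (adjusted p = 0.163). The authors' deposited table calls Draxin lower, at -0.78 with a false discovery rate of 0.0262, in a comparison where 21.0% of 17840 genes are called. Mki67 (0.08 ± 0.06, adjusted p = 0.515) and Top2a (0.07 ± 0.12, adjusted p = 0.749) had CSDS means 1.13 and 1.27 times the control mean, within their spread: Top2a ran from 0.0553 to 0.346 RPKM after CSDS against 0.136 to 0.191 in controls.

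WT CSDS libraries 1 and 5 were the lowest pair of their group for each of the 10 genes, which the plot of deviations by library shows as a pair of blue columns. They were also the most alike of the 40 library pairs within groups (robust SD of their log2 differences 0.065, median pair 0.0951). They were the shallowest pair of their group, at 37.76 and 40.18 M reads against 44.7 to 52.82 in WT CSDS 2 to 4. The summed level of 10 astrocyte markers was 750 and 758 RPKM in them against 636 to 677 in WT CSDS 2 to 4. The sum of 10 microglia markers was 200 and 198 against 173 to 190, and that of 11 oligodendrocyte precursor markers was 99.1 and 97.1 against 111 to 114. The part of depth and of these cells in the low values was not tested. With both libraries left out, a choice made after their values were seen, Sox4 differed by -0.19 on the log2 scale (adjusted p = 0.0588) and Sox11 by -0.08 (adjusted p = 0.6), while Dpysl3 was called higher (0.18, adjusted p = 0.0303).

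**Figure D2:**
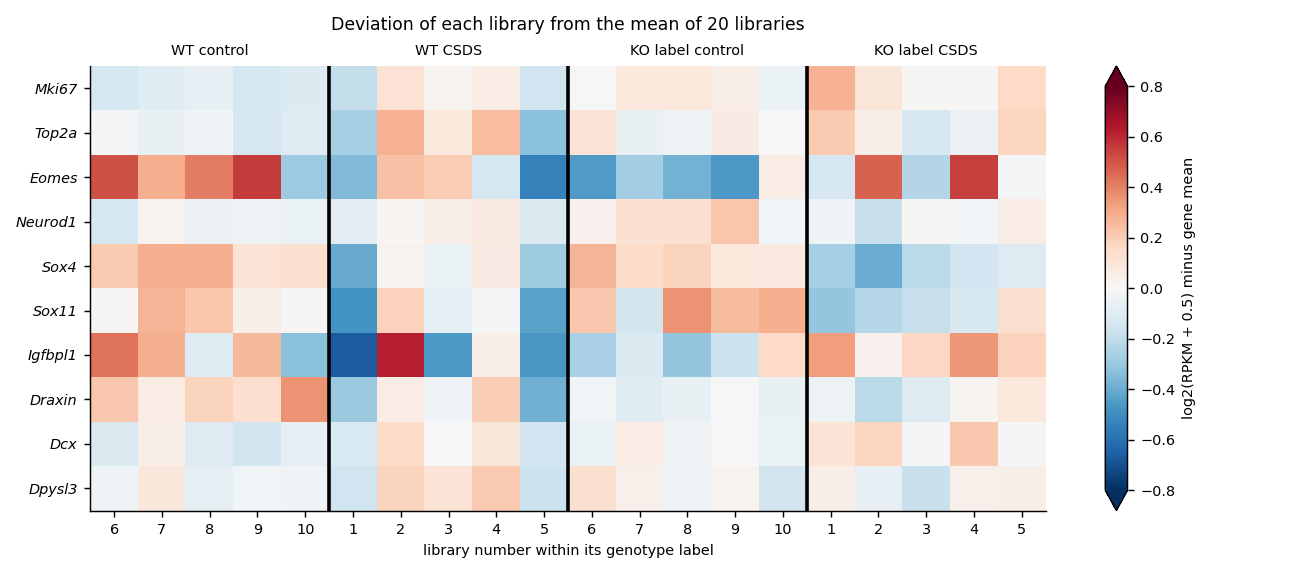
Deviation of log2(RPKM + 0.5) from the mean of the 20 libraries, 1 row per gene and 1 column per library (red higher, blue lower). WT CSDS libraries 1 and 5 are the lowest pair of their group in all 10 rows.

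In KO-labelled mice the same question gave 2 calls among the 7 genes that passed the filter: Sox4 fell and Igfbpl1 rose. Over all 18259 genes tested 15.0% were called in this comparison, 8.88% as lower and 6.17% as higher, and 7 genes are too few to set 2 calls apart from that share. Sox4 was at 3.63, 3.29, 3.38, 3.13 and 3.12 RPKM in KO-labelled controls 6 to 10 and at 2.34, 2.10, 2.45, 2.58 and 2.69 in CSDS libraries 1 to 5. As in WT, no CSDS library reached the lowest control, and the share of all genes that separate as fully is not given here. The mean went from 3.31 ± 0.208 to 2.43 ± 0.23 RPKM (n = 5 each), a log2 difference of -0.38 ± 0.06 (adjusted p = 0.00393). The authors' deposited table gives -0.42 at a false discovery rate of 6.46e-05. The call held in 19 of 20 other settings. The 1 setting without it took the conflicting libraries as CSDS (-0.28, adjusted p = 0.121), and that setting also ended the call in WT (-0.31, adjusted p = 0.0511). In those libraries themselves Sox4 was at 2.96 RPKM in WT 9B, 3.53 in KO 11 and 3.00 in KO 10B. KO 11 lay within the control range of its genotype label, WT 9B within the CSDS range of WT, and KO 10B between the lowest control and the highest CSDS library.

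Igfbpl1 was at 0.627, 0.745, 0.590, 0.697 and 1.01 RPKM in KO-labelled controls 6 to 10 and at 1.20, 0.878, 1.01, 1.21 and 1.03 in CSDS libraries 1 to 5. Control 10, of the female pattern, was inside the CSDS range, and the other 4 controls were below it. The log2 difference was 0.35 ± 0.10 (adjusted p = 0.0364). This call held in 7 of 19 other settings, with adjusted p from 0.00846 without control 10 to 0.221 with a spread shared by all 4 groups, and the authors' deposited table gives a false discovery rate of 0.185. Sox11 was at 1.61, 1.14, 1.84, 1.66 and 1.72 RPKM in KO-labelled controls 6 to 10 and at 0.965, 1.05, 1.10, 1.16 and 1.49 in CSDS libraries 1 to 5. Control 7 lay among the CSDS libraries, and the other 4 controls were above all of them. It was the shallowest library of all, at 25.65 M reads against 40.67 to 52.33 in those 4, and the part of depth was not tested. The Sox11 difference was -0.34 ± 0.11 and just missed the threshold (adjusted p = 0.0574). It passed without control 7 (0.0146), without CSDS 5 (0.0295) or with the conflicting libraries as controls (0.027), and the authors' deposited table, which counts them so, calls it at -0.44 with a false discovery rate of 0.0193.

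Dcx was at 2.22 ± 0.0899 RPKM in KO-labelled controls and 2.44 ± 0.204 after CSDS, a log2 difference of 0.11 ± 0.05 (adjusted p = 0.191). All 5 CSDS libraries were above the control mean, yet the groups overlapped. Neurod1 was at 6.17 ± 0.434 RPKM in controls and 5.59 ± 0.374 after CSDS (-0.13 ± 0.06, adjusted p = 0.147), and Mki67 (0.08 ± 0.07, adjusted p = 0.516) and Dpysl3 (-0.03 ± 0.06, adjusted p = 0.824) did not pass. Without the filter, where 7.69% of 30791 genes were called, Eomes, Top2a and Draxin were not called. Eomes was at 0.109, 0.188, 0.141, 0.107 and 0.368 RPKM in KO-labelled controls 6 to 10 and at 0.260, 0.657, 0.208, 0.715 and 0.325 in CSDS libraries 1 to 5. Here the 5 CSDS libraries were all above the control mean, at 2.37 times its level, and control 10 was again the one that overlapped. The log2 difference was 0.43 ± 0.17 (adjusted p = 0.168), and 0.87 with 0.1 RPKM added before the log (adjusted p = 0.146). The authors' deposited table, on another scale, calls Eomes higher after CSDS (1.08, false discovery rate 0.0337) where 17.1% of 17840 genes are called. Top2a (0.04 ± 0.07, adjusted p = 0.812) and Draxin (-0.00 ± 0.05, adjusted p = 0.981) had nearly equal means.

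**Figure D3:**
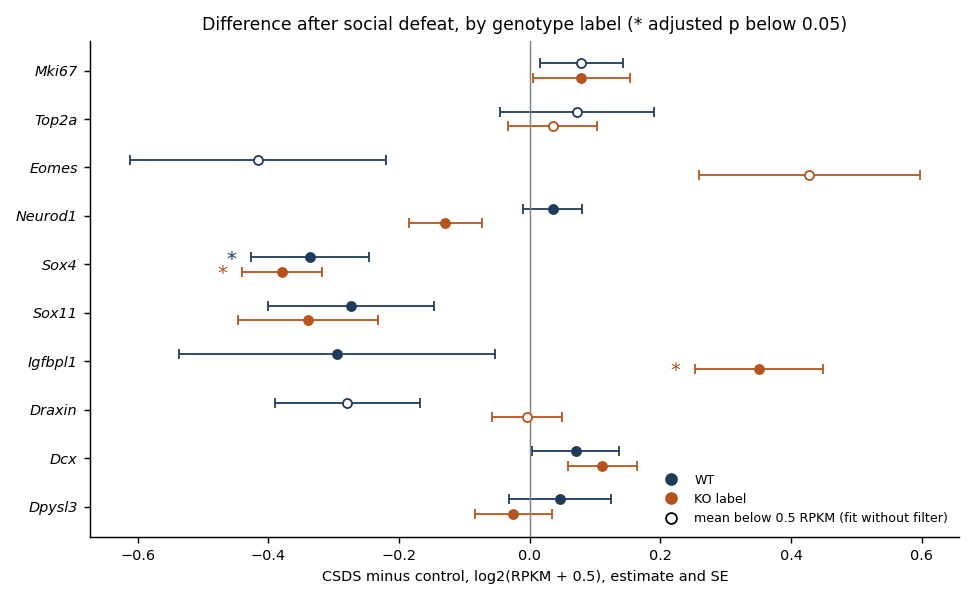
Difference between CSDS and control on the log2(RPKM + 0.5) scale with its SE, for WT (blue) and KO-labelled (orange) libraries, n = 5 against 5. Asterisks mark Sox4 under both labels and Igfbpl1 under the KO label, and open points are genes under the filter.

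The difference between the defeat effects under the 2 genotype labels was tested directly, over all 20 libraries. None of the 6 genes tested was called by limma, in a comparison where 0.148% of 18263 genes were, and 2 of the 6 had an unadjusted p under 0.05. These were Igfbpl1, at 0.65 ± 0.27 on the log2 scale (unadjusted p = 0.0293, adjusted p = 0.365), and Neurod1, at -0.16 ± 0.07 (unadjusted p = 0.0368, adjusted p = 0.396). For Sox4 the difference of the effects was -0.04 ± 0.11 (adjusted p = 0.918), for Sox11 -0.07 ± 0.17 (adjusted p = 0.918) and for Dcx 0.04 ± 0.09 (adjusted p = 0.894). Without the filter, where 0.108% of 32265 genes were called, Eomes had the lowest p of the 10 genes: its effects differed by 0.84 ± 0.27 (unadjusted p = 0.00614, adjusted p = 0.283). A smaller pseudocount of 0.1 RPKM, which weights low levels more, gave 1.68 ± 0.54 for Eomes (adjusted p = 0.287). The Eomes effects in WT and KO-labelled mice thus had opposite signs, and the test of their difference did not survive adjustment.

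Between genotype labels, no gene of the 6 tested was called among controls, where 3.95% of 18263 genes were, or after CSDS, where 2.24% were. The unadjusted p was under 0.05 for 1 of the 6 among controls, Neurod1, and for none of the 6 after CSDS. Neurod1 was at 5.18, 5.86, 5.53, 5.56 and 5.49 RPKM in WT controls 6 to 10 and at 5.87, 6.28, 6.27, 6.77 and 5.64 in KO-labelled controls. All 5 KO-labelled controls were above the WT mean, and the lowest of them lay within the WT range. The log2 difference was 0.14 ± 0.05 (adjusted p = 0.129). Eomes among controls was at 0.544 ± 0.218 RPKM in WT and 0.183 ± 0.109 in KO-labelled libraries, 0.336 times the WT mean, at -0.60 ± 0.19 on the log2 scale without the filter (unadjusted p = 0.00614, adjusted p = 0.137). Over all 5 controls of each label the groups overlapped. In controls 6 to 9 alone they did not, with 0.518 to 0.731 RPKM in WT and 0.107 to 0.188 in KO-labelled libraries. The order was turned in control 10, at 0.182 and 0.368. The share of all genes that separate so in controls 6 to 9 is not given here. After CSDS Eomes was at 0.284 ± 0.181 and 0.433 ± 0.236 RPKM, and the groups overlapped (0.25 ± 0.19, adjusted p = 0.664).

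Mki67 was at 0.380, 0.405, 0.428, 0.382 and 0.398 RPKM in WT controls 6 to 10 and at 0.467, 0.527, 0.529, 0.506 and 0.433 in KO-labelled controls. These groups did not overlap, but the difference was small on this scale and was not called without the filter, where 1.86% of genes were (0.14 ± 0.06, unadjusted p = 0.0328, adjusted p = 0.306). After CSDS Mki67 differed by 0.14 ± 0.06 as well (adjusted p = 0.355), with overlapping groups and 1.07% of genes called. Draxin was at 0.331 ± 0.0654 RPKM in WT controls and 0.204 ± 0.0183 in KO-labelled controls, which did not overlap (-0.24 ± 0.09, unadjusted p = 0.0176, adjusted p = 0.231). The share of all genes whose control groups separate like those of Mki67 and Draxin is not given here. The KO-labelled control mean was 1.25 times the WT mean for Top2a and 1.24 times for Mki67, but the Top2a groups overlapped. Top2a was at 0.165 ± 0.0226 and 0.206 ± 0.0342 RPKM in WT and KO-labelled controls (0.08 ± 0.10, adjusted p = 0.783). After CSDS, Igfbpl1 was at 0.754 ± 0.501 RPKM in WT and 1.07 ± 0.141 in KO-labelled libraries (0.40 ± 0.19, adjusted p = 0.323). Sox4 (-0.10 ± 0.08, adjusted p = 0.594) and Dcx (0.10 ± 0.06, adjusted p = 0.438) did not pass between the CSDS groups. The comparisons within and between genotype labels share libraries, so they are not independent of each other.

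Other genes of the same process were read from lists of 30 dividing-cell genes, 20 stem cell genes, 30 further genes of progenitors and new granule neurons (29 in the tables), 20 genes of mature granule neurons and 29 secreted regulators. Of the dividing-cell genes 11 were below 0.5 RPKM in all 20 libraries, among them Cdk1, Ccnb1 and Birc5, and 13 of 30 were tested. Counts on this and the next lists are given beside the shares of all genes called after CSDS. These shares were 22.4% in WT and 15.0% in KO-labelled mice. The lists were chosen with earlier results of these data known, so a count above a share may come from that choice. In WT CSDS 2 rose and 1 fell (list median 0.09, all genes -0.00): the replication licensing genes Mcm3 (0.21 ± 0.07, adjusted p = 0.0422) and Mcm6 (0.18 ± 0.06, adjusted p = 0.047) rose, and Pcna, the sliding clamp of DNA polymerase, fell by 0.13 ± 0.04 (adjusted p = 0.0297). In KO-labelled mice 1 rose after CSDS, the cyclin E gene Ccne1 (0.19 ± 0.04, adjusted p = 0.0123), and none fell (median 0.01, all genes -0.01).

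Of the stem cell genes 19 of 20 were tested, and Fabp7 and Hes1 fell under both labels. Fabp7, the brain fatty acid binding protein of radial glia and astrocytes, went from 15.4 ± 0.894 to 11.4 ± 0.914 RPKM in WT (-0.42 ± 0.06, adjusted p = 0.00111) and from 18.3 ± 1.77 to 11.3 ± 1.87 RPKM in KO-labelled mice (-0.69 ± 0.10, adjusted p = 0.00295). Hes1, a Notch target that holds cells undifferentiated, differed by -0.33 ± 0.06 in WT (adjusted p = 0.00312) and -0.49 ± 0.08 in KO-labelled mice (adjusted p = 0.00514). In WT 2 rose and 2 fell of 19, near the 22.4% of all genes (median -0.01), the risers being the intermediate filament gene Vim (0.36 ± 0.06, adjusted p = 0.00293) and the Notch glycosyltransferase gene Lfng (0.21 ± 0.04, adjusted p = 0.00599). In KO-labelled mice none rose and 4 fell of 19, where 8.88% of all genes fell (median -0.07), with Id4 (-0.25 ± 0.06, adjusted p = 0.0199) and Emx2 (-0.20 ± 0.06, adjusted p = 0.037) beside the shared pair. Several of these genes, Fabp7, Hes1, Vim and Id4 among them, are also expressed by astrocytes. Because this list too was chosen with earlier results known, its counts against the shares are descriptions and not a test.

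Among the further progenitor and new neuron genes, 25 were tested in WT and 26 in KO-labelled mice. Neurod2 and Bhlhe22, both basic helix-loop-helix genes that also stay on in mature excitatory neurons, fell under both labels. Neurod2 went from 32.1 ± 3.04 to 23.4 ± 1.72 RPKM in WT (-0.45 ± 0.07, adjusted p = 0.00223) and from 31.5 ± 1.15 to 23.1 ± 2.24 RPKM in KO-labelled mice (-0.44 ± 0.06, adjusted p = 0.00169). Bhlhe22 differed by -0.27 ± 0.05 (adjusted p = 0.00485) and -0.38 ± 0.06 (adjusted p = 0.00342). In WT none rose and 4 fell of 25, near the 12.5% of all genes that fell (median -0.02), Cd24a (-0.33 ± 0.09, adjusted p = 0.027) and the neuronal RNA-binding protein gene Elavl4 (-0.18 ± 0.05, adjusted p = 0.0352) being the others. In KO-labelled mice 1 rose and 2 fell of 26, a share no higher than the 15.0% of all genes (median 0.01), the riser being the tubulin gene Tubb2b (0.15 ± 0.04, adjusted p = 0.036). Between controls 1 of 25 was called, near the 3.95% of all genes, the neuronal tubulin gene Tubb3, lower under the KO label (-0.21 ± 0.06, adjusted p = 0.041).

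All 20 genes of mature granule neurons were tested. After CSDS none rose and 3 fell in WT (median -0.02), where 12.5% of all genes fell and 9.88% rose, and 1 rose and 4 fell in KO-labelled mice (median -0.10), where 6.17% rose and 8.88% fell. Rasl10a, which encodes a Ras-like GTPase, differed by -0.59 ± 0.10 (adjusted p = 0.00279) and -0.67 ± 0.08 (adjusted p = 0.00128), and Rbfox3, the gene of the neuronal nuclear antigen NeuN, by -0.29 ± 0.05 (adjusted p = 0.00391) and -0.23 ± 0.03 (adjusted p = 0.000975). Icam5 was the third to fall in WT (-0.08 ± 0.03, adjusted p = 0.0448). In KO-labelled mice Stxbp6 (-0.18 ± 0.05, adjusted p = 0.0406) and C1ql3 fell as well, and Pdzd2 rose (0.28 ± 0.07, adjusted p = 0.0294). Between controls, where 3.95% of all genes were called, 3 of 20 were higher under the KO label and none lower: the synaptic gene C1ql2 (0.44 ± 0.09, adjusted p = 0.00868), the cation channel gene Trpc6 (0.43 ± 0.08, adjusted p = 0.0046) and Stxbp6 (0.32 ± 0.07, adjusted p = 0.0106). Of the secreted regulators 23 of 29 were tested. In WT 1 rose and 3 fell after CSDS (median -0.00), and in KO-labelled mice 1 rose and 2 fell (median -0.06). The neurotrophin gene Ntf3 rose under both labels (0.25 ± 0.05, adjusted p = 0.00464, and 0.24 ± 0.07, adjusted p = 0.0301), and Dkk3 (-0.26 ± 0.03, adjusted p = 0.000995, and -0.20 ± 0.05, adjusted p = 0.0314) and Wnt7a (-0.30 ± 0.07, adjusted p = 0.00906, and -0.24 ± 0.07, adjusted p = 0.035) fell under both. Dll1, which encodes a Notch ligand, fell in WT (-0.21 ± 0.05, adjusted p = 0.0132). Between controls 1 of 23 was higher under the KO label and 1 lower, and after CSDS 1 was higher and none lower. The lower one was Wnt7b, at 7.34 ± 0.355 against 8.39 ± 0.225 RPKM in controls (-0.18 ± 0.04, adjusted p = 0.00615). The higher one in both was Bdnf, which encodes a neurotrophin studied in adult neurogenesis, at 5.21 ± 0.16 against 4.32 ± 0.181 RPKM in controls (0.24 ± 0.04, adjusted p = 0.0014) and at 5.46 ± 0.25 against 4.66 ± 0.265 after CSDS (0.21 ± 0.04, adjusted p = 0.00506). None of the genes on these 5 lists was called for a difference of CSDS effects between the labels.

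**Figure D4:**
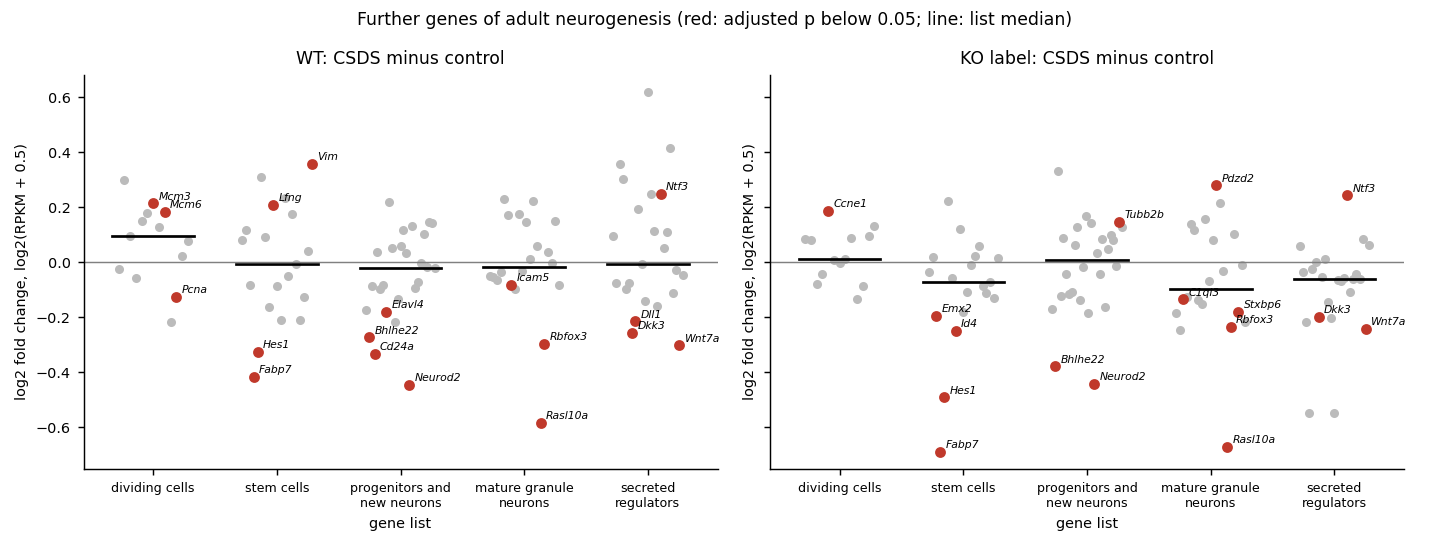
Log2 fold change (CSDS minus control) of every tested gene on 5 lists of adult neurogenesis, in WT (left) and KO-labelled mice (right), with list medians as lines and called genes in red. List medians lie between -0.10 and 0.09, while Fabp7, Hes1, Neurod2, Bhlhe22, Rasl10a, Rbfox3, Dkk3 and Wnt7a are called lower in both panels.

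Markers of other cells were read beside these results, and no marker on any list was at 0 in all 20 libraries. Over all genes, 12.5% fell and 9.88% rose after CSDS in WT, and 8.88% fell and 6.17% rose in KO-labelled mice. Between labels 3.95% of all genes were called among controls and 2.24% after CSDS. After CSDS in KO-labelled mice 7 of 10 meningeal fibroblast markers fell, with a summed level of 36.0 to 66.1 RPKM against 60.5 to 116 in controls. In the same comparison 6 of 10 endothelial markers fell and 1 rose (68.7 to 75.0 against 82.0 to 95.1 RPKM), and 1 of 10 microglia markers fell (156 to 178 against 165 to 190). In WT none of the meningeal markers was called (67.6 to 96.9 against 29.8 to 122 RPKM), 2 endothelial markers rose and 2 fell (71.9 to 84.1 against 74.2 to 97.3), and 3 microglia markers rose (173 to 200 against 151 to 183). Oligodendrocyte precursor markers, 11 in the tables, had 2 higher and 1 lower in WT and 1 higher in KO-labelled mice. Of 10 astrocyte markers 2 rose and 1 fell in WT, and 2 rose and 3 fell in KO-labelled mice. None of the 10 choroid plexus markers was called, although their sum ran from 24.4 to 4920 RPKM in WT controls. Of 14 markers of olfactory-type neuroblasts and striatum, 1 fell in WT and 1 rose and 1 fell in KO-labelled mice, none of the 4 tested Cajal-Retzius markers was called, and of 12 hippocampal field markers none was called in WT and 1, Dcn, fell in KO-labelled mice. Dcn is counted among the meningeal markers too, and Gjb2 among both the meningeal and the astrocyte markers that fell. Between controls 2 hippocampal field markers were higher under the KO label, Bok and C1ql2, the latter also on the list of mature granule neurons, and their list summed to 241 to 250 RPKM against 226 to 241 in WT. The endothelial marker Cldn5 (list sum 82.0 to 95.1 against 74.2 to 97.3 RPKM) and the astrocyte marker Aqp4 (651 to 686 against 609 to 691) were higher there as well. After CSDS Bok was higher under the KO label, and Pdgfra of the oligodendrocyte precursor list and Lum of the meningeal list were lower. The part of these cells in the values of Sox4, Igfbpl1 and the other genes was not tested.

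Finally, the genes of most similar pattern were read for 3 of the 10. The measure was the correlation of log2 levels over the 20 libraries with group means taken off. Of the 18263 genes compared, those without a name, predicted gene models and mitochondrially encoded genes were left out. For Dcx the most alike genes were Lztfl1 (r = 0.83), Tmem163 (0.81), Tmem68 (0.80), Snapc1 (0.79) and Cd200 (0.77). For Neurod1 they were Slc27a3 (0.83), Nfya (0.82), Cemip2 (0.81), Kmt5b (0.78) and Snx29 (0.77). For Mki67 they were Trim67 (0.83), Tnc (0.82), Wipi1 (0.81), Map4k4 (0.81) and Rabep1 (0.81). With group means left in, r for these pairs ran from 0.014 (Mki67 and Rabep1) to 0.778 (Mki67 and Trim67). No gene of the 10 and no gene of the lists above was among these 15. Within the 10, the highest correlations were between Top2a and Dpysl3 (0.83), Mki67 and Top2a (0.83), Top2a and Draxin (0.76), Sox4 and Dpysl3 (0.76) and Sox11 and Sox4 (0.73). They are descriptions, since the libraries share depth and scaling and WT CSDS 1 and 5 are low in every gene of the 10.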

How the data were processed

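Hippocampal poly(A) RNA was sequenced from 23 libraries, and the 20 of agreeing label form 4 groups of 5. Per the labels' protocols, RNA came from a lipid tissue kit and TruSeq V2 libraries, which keep no strand, were read as 75 bp single ends. The submitters' processing notes name STAR and the mm10 build. Which annotation and read counter were used is not given in the sources used here. The authors deposited RPKM values per library and group means, in 1 table per genotype label. Per the file headers, the authors' deposited table also holds log2 fold changes and abundances, a likelihood ratio score and p-values with false discovery rates from edgeR. Their fold changes are control over CSDS, so the sign was turned here. Dates stood in place of 26 symbols in the KO-labelled table, so symbols came from the WT table.

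Depth was estimated from the deposited RPKM steps of 11945 single-exon genes, where 92.7% to 94.1% of low values lay within 0.05 of a whole read. Exon lengths came from GENCODE M21, where 96.3% of gene IDs have the same coordinates. Values were tested as log2(RPKM + 0.5) with limma-trend 3.58.1 (R 4.3.3), two-sided, among genes with a mean of at least 0.5 RPKM, with Benjamini-Hochberg adjustment over all genes and calls at 0.05. Each CSDS comparison was fitted on the 10 libraries of its label, and the other 3 comparisons on all 20. This scale understates changes of low genes, and genes under the filter were also fitted without it. The fit was tested on simulated data. Alternatives were pseudocounts of 0.1 and 1, no filter, a filter at 1 RPKM, rescaled libraries, robust limma, both readings of the conflicting libraries, 1 fit over 4 groups, a replicate block, and libraries left out. The members and lists were chosen with earlier results of these data known. All 10 members are named, with the called genes among the 4 of smallest p per list and comparison (the rule also takes uncalled ones, which are given only within the counts), called markers mostly as counts, and the 5 most alike genes for Dcx, Neurod1 and Mki67.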

Additional observations from a re-analysis of the deposited data

Results flagged for a closer look

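Dpysl3 in WT control 7 was at 10.1 RPKM, while the other 4 WT controls were between 9.0 and 9.3, a gap of 0.733 of the group's range. It was the only such value among 40 sets of 5 libraries (10 genes in 4 groups), where chance gives about 1 in 20.

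The CSDS effect on Eomes differed by 0.84 on the log2 scale between KO-labelled and WT mice. Every WT CSDS library was below the WT control mean of 0.544 RPKM, and every KO-labelled CSDS library was above its control mean of 0.183 RPKM. The test of the difference, by limma without the filter on low values, gave an unadjusted p of 0.00614 and an adjusted p of 0.283. Eomes rested on 12 to 139 reads per library.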

How the results depend on the processing

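Read as CSDS, the 3 conflicting libraries left no called member in WT (0) or KO-labelled mice (0), with 1240 and 143 genes called in all, against 4093 and 2747. They left 1 gene for the difference of CSDS effects and 399 between controls. Read as controls, they gave 98 and 1627 there, against 27 and 722. Without control 10 of both labels 181 genes were called for the difference and 629 between the CSDS groups, against 409. Rescaled libraries gave 480 genes between controls and moved the share of higher calls from 41.0% to 52.2% in KO-labelled CSDS and from 62.0% to 51.0% between controls. Without WT CSDS 1 and 5, 2385 genes were called in WT. In KO-labelled mice 1 member, Sox4, stayed called without the filter, with the filter at 1 RPKM (which Igfbpl1 does not pass), with 1 fit over 4 groups, and with no filter and a pseudocount of 0.1. The causes were not tested.

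Leaving out 1 library at a time gave 0 to 2 called members and 3077 to 4016 genes in WT, 1 to 2 members and 1658 to 3668 genes in KO-labelled mice, 0 members and 16 to 244 genes for the difference, 0 members and 368 to 890 genes between controls, and 0 to 1 member and 245 to 474 genes between CSDS groups. The 1 member in that last comparison was Igfbpl1, at an adjusted p of 0.0466. Signs turned only for values that no test called. With the conflicting libraries as CSDS, the difference of effects was 0.005 for Sox11 and 0.036 for Sox4, and Neurod1 between CSDS groups was 0.017. Without WT CSDS 1 and 5, the difference was -0.048 for Dcx, and Sox11 between CSDS groups was -0.177. With 1 library out, the ranges crossing 0 were -0.062 to 0.015 for Dpysl3 in KO-labelled CSDS, -0.15 to 0.022 for Sox11 and -0.111 to 0.006 for Sox4 in the difference, -0.015 to 0.053 for Dpysl3 between controls, and -0.063 to 0.104 for Sox11 and -0.044 to 0.018 for Neurod1 between CSDS groups. Of the other values of single members, 688 kept sign and side of the threshold, 18 lost a call and 6 gained one.

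Library numbers recur under both labels. Same-numbered libraries correlated at -0.107 to 0.371 in controls and -0.005 to 0.097 after CSDS, and only controls 8 and 10 and CSDS 2 and 3 correlated best with their own number, so the numbers were not taken as pairs. With a replicate block 23, 544 and 282 genes were called for the difference, between controls and between CSDS groups, and 0 members in each.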
